A study of Mus musculus with 4 samples.

Results

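The 9 genes described here mark or control stem and progenitor cells and were read out on 4 arrays: Prom1, Cd24a, Alcam, Lrig1, Tnfrsf19, Msi1, Bmi1, Runx1 and Sox9. They were chosen by name, with earlier results of these data known. Every array probe whose accession belongs to 1 of them was taken, which gave 13 of the 41174 probes and 9 of the 21045 genes tested. Lrig1, Cd24a, Msi1, Alcam, Tnfrsf19 and Runx1 have 1 probe each, Prom1 and Bmi1 have 2 and Sox9 has 3. All 13 probes passed the filter on dim signal, which asks for signal well above background on both CD44+ arrays or on both CD44- arrays. The probes of 8 of the 9 genes, taking the brightest probe of each, were well above background on all 4 arrays, and Tnfrsf19 was the exception.

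The RNA came from cells of gastric tumours in 30-week-old mice of the K19-Wnt1/C2mE line. Lineage-negative (Lin-) CD44+ cells made up 1 group and Lin- CD44- cells the other, with 2 arrays each. Both groups carry the same transgenes, in which the promoter of keratin 19 drives Wnt1 and the enzymes Ptgs2 (known as COX-2) and Ptges (a prostaglandin E synthase) in the glandular stomach epithelium, so neither group is a normal stomach. CD44 binds hyaluronan at the cell surface and is often used to sort for tumour-initiating cells, and the comparison asks which transcripts differ with it. The labels do not say whether the 2 replicates of a group are separate mice, so every p-value here reflects the spread between arrays that may be technical.

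Stem cells of the stomach and intestine renew the epithelial lining from glands and crypts under Wnt, Notch and EGF receptor signals. The 9 genes act at different levels of that control. Prominin-1 (Prom1, CD133), CD24 and ALCAM (CD166) are surface proteins used to sort stem-like and tumour-initiating cells. Lrig1 is a membrane protein that restrains EGF receptor family signalling and marks intestinal and gastric stem and progenitor cells in mice. Tnfrsf19 (Troy) is a TNF receptor relative and Wnt target that marks intestinal stem cells and a subset of chief cells in the stomach. Musashi-1 (Msi1) is an RNA-binding protein that represses translation of Numb, an inhibitor of Notch. Bmi1 is a subunit of Polycomb repressive complex 1, which silences genes such as Cdkn2a. Runx1 and Sox9 are transcription factors, and Sox9 is a Wnt target in the crypt.

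Prom1, Lrig1 and Tnfrsf19 were the 3 genes with an unadjusted p under 0.05, although Tnfrsf19 was well above background on only 1 CD44+ array, and their promoters are shown because the tumours are driven by a Wnt ligand. Promoter entries were found for 6 of the 9 genes, 9 start sites in all. They are RefSeq sequences of GRCm38.p6 that run from 250 bases before the start site to 50 after it. Hexamers were searched on both strands, namely CTTTGA for TCF/LEF factors, which act at the end of the Wnt pathway, TGTGGT or TGCGGT for RUNX factors, and ACAAAG or ACAATG for SOX factors. CTTTGA and the reverse complement of ACAAAG share their first letters and differ in the last, so no position matches both. Capitals mark a match, and which start site is used in these cells is not known here. The 4 windows read as follows, all genes lying on the minus strand, at chr5:44101687-44101986 (Prom1, the first start site), chr5:44094719-44095018 (Prom1, the second), chr6:94700096-94700395 (Lrig1) and chr14:61037938-61038237 (Tnfrsf19, the second).
Prom1 first start site: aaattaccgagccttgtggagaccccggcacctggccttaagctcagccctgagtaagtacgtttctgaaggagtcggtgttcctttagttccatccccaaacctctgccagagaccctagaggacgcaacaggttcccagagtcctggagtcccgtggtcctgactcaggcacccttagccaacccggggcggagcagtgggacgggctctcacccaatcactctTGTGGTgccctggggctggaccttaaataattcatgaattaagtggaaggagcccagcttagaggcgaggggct
Prom1 second start site: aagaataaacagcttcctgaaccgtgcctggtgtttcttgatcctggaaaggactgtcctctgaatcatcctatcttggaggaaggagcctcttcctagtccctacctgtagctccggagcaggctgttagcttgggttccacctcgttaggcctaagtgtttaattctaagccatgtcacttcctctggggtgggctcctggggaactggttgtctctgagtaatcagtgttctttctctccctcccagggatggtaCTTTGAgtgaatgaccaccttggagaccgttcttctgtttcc
Lrig1: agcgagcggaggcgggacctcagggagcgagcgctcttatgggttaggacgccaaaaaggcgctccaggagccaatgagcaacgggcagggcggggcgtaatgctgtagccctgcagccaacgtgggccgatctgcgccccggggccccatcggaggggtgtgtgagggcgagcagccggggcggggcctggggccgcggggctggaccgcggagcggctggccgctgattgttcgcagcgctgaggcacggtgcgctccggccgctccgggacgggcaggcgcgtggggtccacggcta
Tnfrsf19 second start site: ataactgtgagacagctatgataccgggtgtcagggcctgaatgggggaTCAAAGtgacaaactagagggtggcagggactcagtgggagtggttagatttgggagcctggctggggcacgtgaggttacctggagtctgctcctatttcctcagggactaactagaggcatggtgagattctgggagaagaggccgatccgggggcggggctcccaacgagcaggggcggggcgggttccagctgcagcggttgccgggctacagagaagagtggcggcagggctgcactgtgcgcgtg

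In Prom1, TGTGGT began at position -24 of the first start site and CTTTGA at position 9 of the second, counting the start base as 1. In Tnfrsf19, CTTTGA lay on the opposite strand, so the printed strand reads TCAAAG from position -201 of the second start site. The first start site of Tnfrsf19 held none of these letters, nor did the Lrig1 and Alcam windows. In the remaining entries Bmi1 held ACAATG at position 35, and Runx1 held TGTGGT on the opposite strand at positions 29 and 37 of its first start site. A TCF/LEF hexamer was thus present for 2 of the 6 genes, a RUNX hexamer for 2 and a SOX hexamer for 1. The same letters occur in 16.0%, 22.4% and 28.6% of all 32851 promoter windows of this length, so the matches are a description and not sites of binding. Those shares are per window, while the counts are per gene and a gene can have 2 windows, so the 2 are not on the same scale.

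The arrays differed in brightness. The 75th percentile of signal was 244 and 493 in the CD44+ group, against 406 and 527 in the CD44- group, and 53.1% to 69.6% of gene spots were well above background. No spot was saturated, and all 4 arrays sat on 1 slide read in 1 scan, so slide and scan do not part the groups. Levels below are log2 of the processed signal relative to each array's 75th percentile, and a probe's level is set only against itself on other arrays. Cd44, the sort marker, lay at 6.31 and 6.54 on the CD44+ arrays, against 4.26 and 5.11 on the CD44- arrays. Its log2 difference of 1.74 ± 0.49 (SE, 2 arrays per group) had an adjusted p of 0.199 by limma, so it did not pass over all genes. With so few arrays the intervals around each difference are wide.

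None of the 9 genes passed limma's test over all genes at a Benjamini-Hochberg adjusted p under 0.05, which 0.399% of the 21045 genes did, 0.0238% as higher and 0.375% as lower in CD44+ cells. At an unadjusted p under 0.05 there were 3 of the 9, Prom1, Lrig1 and Tnfrsf19, while 10.8% of all genes reached it. The groups did not overlap for 4 of the 9, against 39.6% of all genes. Of these, Prom1, Lrig1 and Alcam lay higher in CD44+ cells, where 22.4% of all genes did so, and Tnfrsf19 lay lower, where 17.2% did. For Tnfrsf19 both its p and its lack of overlap rest on a CD44+ array where it was not well above background. Only the CD44- arrays brought it through the filter on dim signal. With that CD44+ array set to the lowest level well above background there, its groups overlap. The median log2 difference of the 9 was 0.15, beside 0.16 for all genes tested, and 7 of the 9 lay above 0, as did 60.6% of all genes. The 95% interval of the difference covered 0 for 6 of the 9. A p that misses the threshold does not show that the groups were alike, and the intervals below give the range of differences that these arrays allow.

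**Figure D1:**
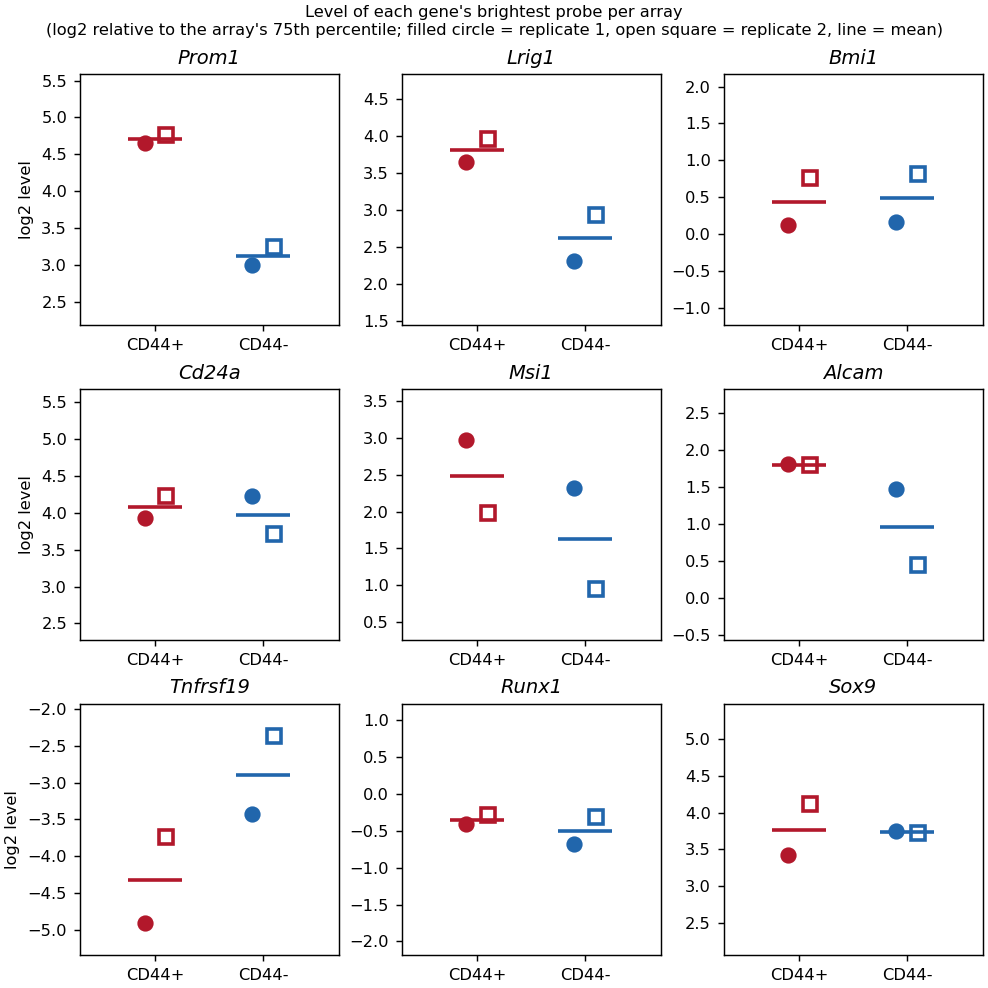
Log2 level of the brightest probe of each of the 9 genes, relative to the array's 75th percentile, in CD44+ (left) and CD44- cells (right). Points are arrays (filled circle replicate 1, open square replicate 2), the line is the group mean, and every panel spans the same log2 range. Prom1, Lrig1 and Alcam have both CD44+ arrays above both CD44- arrays, and Tnfrsf19 has them below. The first CD44+ array of Tnfrsf19 was not well above background.

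Prom1, the surface marker CD133, stood farthest above 0. Its brighter probe (A_51_P414072, NM_008935) lay at 4.65 and 4.76 in CD44+ cells, against 3.00 and 3.24 in CD44- cells. The groups did not overlap, and replicates of a group were within 0.24 of each other. Signal was 3.01-fold higher in CD44+ cells, at 1.59 ± 0.44 (SE, 2 arrays per group, log2 difference, with 95% interval 0.58 to 2.60), and 1.27% of all genes had a larger difference in that direction. The adjusted p was 0.197 by limma. The second Prom1 probe (A_52_P402786), aimed at the same transcript, lay at 1.28 and 1.30 in CD44+ cells, against -0.04 and -0.20 in CD44- cells. It also showed no overlap, with a log2 difference of 1.41 ± 0.44 and an adjusted p of 0.252 over all probes, of which 0.43% passed. With each array left out in turn the difference of the brighter probe was 1.47 to 1.71.

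In bulk RNA of sorted cells, more signal of a marker can come from more cells that carry it or from more RNA per cell, and these cannot be told apart. Other genes, in lists chosen with earlier results of these data known, lay in the same direction as Prom1. Over all genes, 60.6% lay above 0, and 22.4% were higher and 17.2% lower in CD44+ cells without overlap. Of the 11 cell cycle genes tested, all 11 were higher in CD44+ cells without overlap, with a median log2 difference of 1.75. Their summed signal was 95.3 and 114 times the array's 75th percentile in CD44+ cells, against 47.6 and 32.6 times in CD44- cells. Among 10 epithelial markers 7 lay above 0, 4 were higher and 2 lower without overlap, and the summed signal overlapped, at 3921 and 2402 in CD44+ cells, against 3066 and 1522 in CD44- cells. Cldn7, a tight junction protein, lay at 6.39 and 6.65 in CD44+ cells, against 4.76 and 4.61 in CD44- cells. Muc5ac, the mucin of surface mucous cells, lay at 0.26 and -1.02 in CD44+ cells, against 5.78 and 2.77 in CD44- cells, by its brightest probe. Its log2 difference was -4.65 by that probe and -2.22 as the mean of its probes. The part of these lists in the Prom1 result was not tested.

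When each array was scaled to its epithelial markers instead, a setting added after the data were seen, every difference moved by -1.15 and the median of all genes became -0.99. Prom1 was then at 0.44 and Lrig1 at 0.04, while Msi1 and Alcam were at -0.30 each. Relative to the median of all genes their order did not change, because such a scaling moves every gene alike. In both scalings Prom1, Lrig1, Alcam and Msi1 were the 4 of the 9 genes above that median.

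The other 2 surface markers lay closer to 0. Alcam, an adhesion molecule of the immunoglobulin family, lay at 1.81 and 1.80 in CD44+ cells, against 1.47 and 0.44 in CD44- cells. The groups did not overlap, but the second CD44- array minus the first was -1.03. The difference was 0.85 ± 0.50 (1.80-fold, 95% interval -0.31 to 2.01, adjusted p = 0.689 by limma). Leaving out the second CD44- array gave 0.34, and leaving out the first gave 1.36. Cd24a, which encodes the heavily glycosylated surface protein CD24, lay at 3.92 and 4.22 in CD44+ cells, against 4.23 and 3.72 in CD44- cells. These groups overlapped, and the difference of 0.10 ± 0.46 had an interval of -0.96 to 1.16 (adjusted p = 0.954 by limma). Its sign turned without CD44+ replicate 2 and without CD44- replicate 2, at -0.05 and -0.16.

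**Figure D2:**
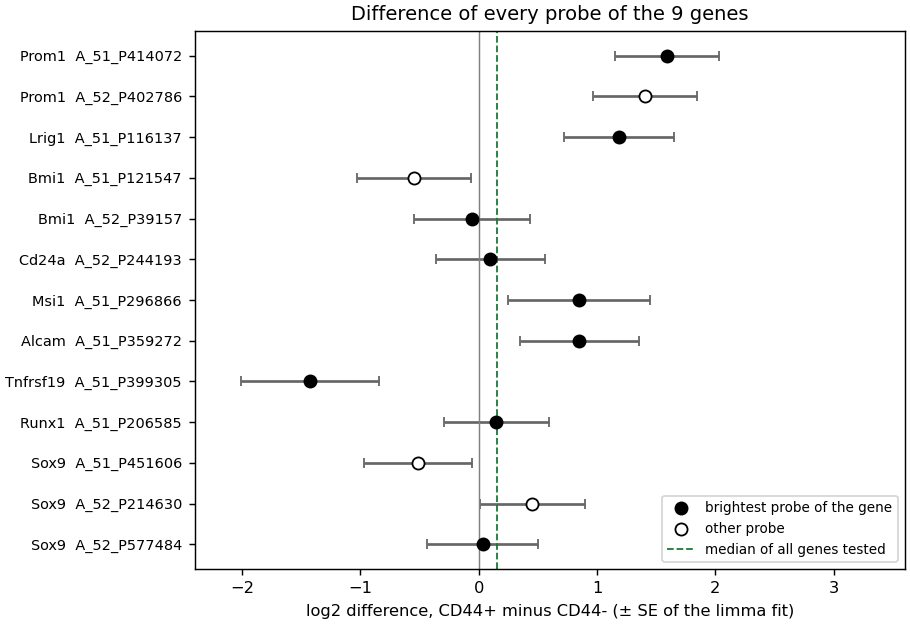
Log2 difference, CD44+ minus CD44-, of each of the 13 probes of the 9 genes, with its standard error from limma as bars. Filled points are the brightest probe of a gene, open points its other probes, the grey line is 0 and the dashed line the median of all genes tested (0.16). Both Prom1 probes lie to the right, Tnfrsf19 lies to the left, and the 3 Sox9 probes lie on both sides of 0.

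Lrig1 and Tnfrsf19, the membrane proteins tied to EGF receptor and Wnt signalling, lay on opposite sides. Lrig1 (A_51_P116137, NM_008377) lay at 3.65 and 3.97 in CD44+ cells, against 2.31 and 2.94 in CD44- cells, without overlap. Its signal was 2.28-fold higher in CD44+ cells, at 1.19 ± 0.47 (log2 difference, 95% interval 0.11 to 2.27, adjusted p = 0.393 by limma), and 2.80% of all genes had a larger one. Leaving out the first CD44- array gave 0.88, and leaving out the second gave 1.50. Tnfrsf19 was the dim exception. Its probe (A_51_P399305, NM_013869) had a processed signal of 8.11 and 37.0 in CD44+ cells, against 37.7 and 102 in CD44- cells, where the scanner software's error was 4.88 and 4.66, against 4.66 and 10.6. The first CD44+ array was not well above background, and on that array the lowest log2 level that was lies at -3.41.

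On the log2 scale Tnfrsf19 lay at -4.91 and -3.74 in CD44+ cells, against -3.43 and -2.37 in CD44- cells. The groups did not overlap, and both second replicates were higher than the first, by 1.17 in CD44+ cells and 1.06 in CD44- cells. The log2 difference was -1.42 ± 0.59 (95% interval -2.78 to -0.07, adjusted p = 0.426 by limma), and its size is not firm. With the first CD44+ array set to the lowest level well above background there, a setting added after the data were seen, it was -0.68, or 1.60-fold lower in CD44+ cells. That level, -3.41, lies just above the first CD44- array at -3.43, so the groups then overlap. The value depended on the treatment of dim signal: with normexp background correction it was -0.25. It was -0.84 without CD44+ replicate 1, the array where the probe was not well above background, and -0.89 without CD44- replicate 2. Without CD44+ replicate 2 it was -2.01 and without CD44- replicate 1 it was -1.95.

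Markers of other cells were also lower in CD44+ cells beside Tnfrsf19. Over all genes, 17.2% were lower without overlap. All 10 fibroblast genes tested lay below 0, with a median of -3.22 and 7 without overlap. Their summed signal was 12.2 and 48.0 in CD44+ cells, against 78.7 and 468 in CD44- cells. Endothelial markers had 7 of 8 lower without overlap, with sums of 1.55 and 2.19 in CD44+ cells, against 6.77 and 119 in CD44- cells. Kdr, a receptor for vascular endothelial growth factor, lay at -3.24 and -2.30 in CD44+ cells, against -0.21 and 3.98 in CD44- cells. The second CD44- array was the highest for these lists and for Tnfrsf19. The part of these cells in the Tnfrsf19 result was not tested.

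The sums of enteroendocrine, squamous and tuft markers were lower in CD44+ cells as well. The enteroendocrine sum was 1.44 and 3.88 in CD44+ cells, against 303 and 707 in CD44- cells. Of the 11 genes 6 passed limma's test as lower, as did 0.375% of all genes. Among them was chromogranin B (Chgb, log2 difference -8.06 ± 0.48, adjusted p = 0.00174 by limma). Ghrl and Scg5, also among the 6 and named after their values were seen, were well above background on only 1 CD44+ array. Only the CD44- arrays brought them through the filter on dim signal. The squamous sum was 18.6 and 3.49 in CD44+ cells, against 241 and 400 in CD44- cells, and 2 of 9 passed as lower, while 2 of the 9 lay above 0 and 1 of these was higher without overlap. One of them, the keratinocyte gene Krtdap, had no CD44+ array well above background and was at least 206-fold lower (adjusted p = 0.000714 by limma). Such lower limits set the bright group's mean against the lowest signal well above background on each dim array, or the probe's own signal where that is higher. A gene of this kind passed the filter on dim signal only through its bright group. Its p uses the dim signals as measured and so does not belong to the lower limit. The tuft cell sum was 5.23 and 7.39 in CD44+ cells, against 13.3 and 29.0 in CD44- cells. Of 9 tuft genes 1 passed, as lower, while 2 lay above 0 and 1 of these was higher without overlap. The gene that passed, Il25, which tuft cells secrete, was not well above background in CD44+ cells and was at least 2.79-fold lower (adjusted p = 0.0422 by limma). The call was lost with quantile normalization, normexp and no filter.

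Leukocyte markers, of a kind that lineage depletion removes, did not move as 1 group. In CD44+ cells 4 of 8 genes were higher and 3 lower without overlap, beside 22.4% and 17.2% of all genes. Their sum was 51.0 and 59.7 in CD44+ cells, against 20.3 and 27.2 in CD44- cells, and 92.9% to 97.9% of it was Cd14 on each array. Cd14, a lipopolysaccharide co-receptor, lay at 5.62 and 5.87 in CD44+ cells, against 4.25 and 4.66 in CD44- cells (1.29 ± 0.45, adjusted p = 0.316 by limma). The 3 lower genes, named after their values were seen, were Ptprc (CD45) at -0.66 ± 0.47, Laptm5 at -1.48 ± 0.57 and Lcp2 at -2.77 ± 1.18, the last 2 well above background on only 1 CD44+ array. The tetraspanin Cd53 passed, at least 9.06-fold higher in CD44+ cells and not well above background in CD44- cells (adjusted p = 0.0240 by limma). Only the CD44+ arrays brought Cd53 through the filter, and its p uses the dim CD44- signals as measured. The call was lost with quantile normalization and no filter. All 7 mast cell genes lay above 0, as did 60.6% of all genes, and 4 of the 7 did not overlap. Kit, Fcer1a and Tpsb2, named after their values were seen, overlapped at 0.06, 0.13 and 0.05. These lie below the median of all genes, 0.16, so the list did not rise evenly. The mast cell sum was 10.5 and 14.9 in CD44+ cells, against 3.44 and 3.20 in CD44- cells. The mast cell protease Mcpt1 passed at 2.94 ± 0.45 (adjusted p = 0.0478 by limma). The Mcpt1 call was lost with quantile normalization, no filter and epithelial scaling. Runx1 and Alcam are also expressed by blood cells, and the part of such cells in their values was not tested.

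**Figure D3:**
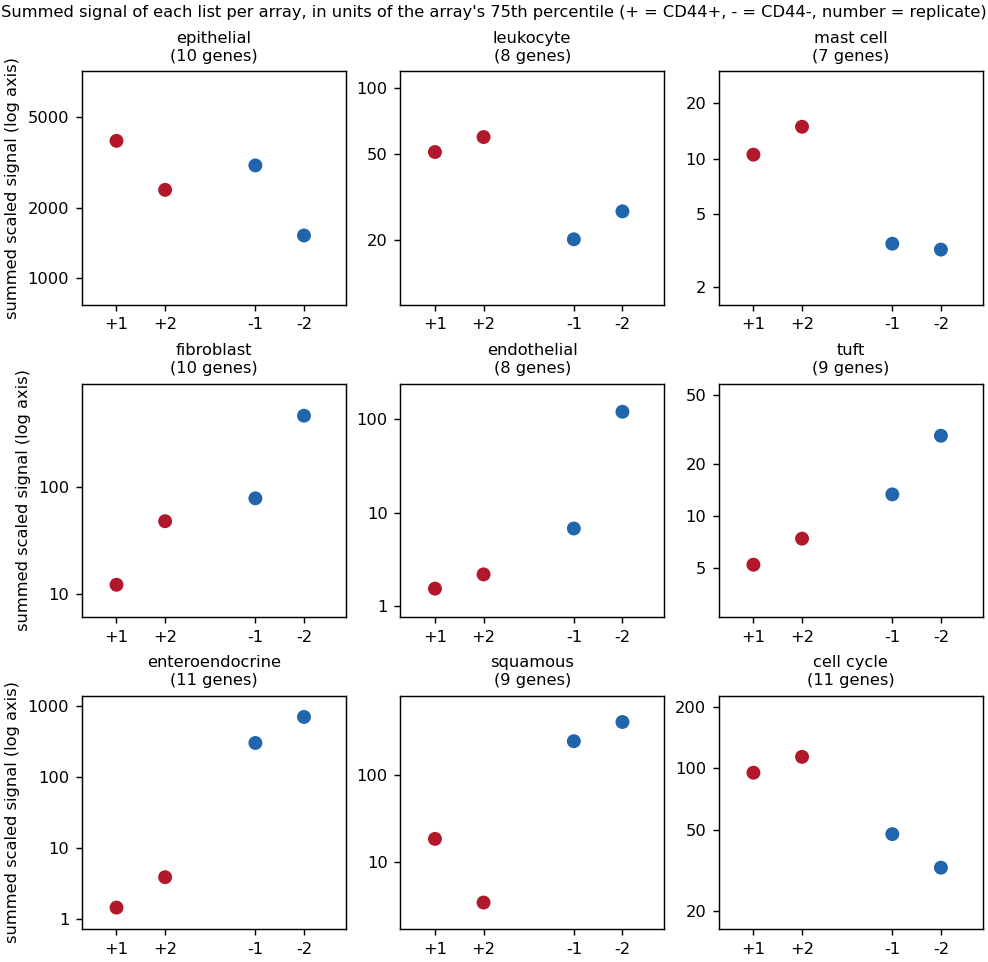
Summed signal of the tested genes of each cell type or cell cycle list on each array, in units of the array's 75th percentile on log axes whose range differs by panel. Red points are the CD44+ arrays 1 and 2 and blue points the CD44- arrays 1 and 2. Leukocyte (nearly all Cd14), mast cell and cell cycle sums are higher on both CD44+ arrays, the epithelial sums overlap, and fibroblast, endothelial, tuft, enteroendocrine and squamous sums are lower.

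Msi1, the RNA-binding protein that acts on Numb, had the widest range over the 4 arrays, 2.02, of the 8 genes well above background on all of them. It lay at 2.97 and 1.99 in CD44+ cells, against 2.31 and 0.95 in CD44- cells. The groups overlapped, since the first CD44- array was above the second CD44+ array. In both groups the second replicate was below the first: the second minus the first was -0.98 in CD44+ cells and -1.37 in CD44- cells. The difference was 0.85 ± 0.61 (1.80-fold, 95% interval -0.55 to 2.24, adjusted p = 0.762 by limma). With the first CD44+ or the second CD44- array left out it was 0.36 and 0.16, and with the second CD44+ or the first CD44- array left out 1.34 and 1.53.

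Bmi1, the Polycomb subunit, lay at 0.12 and 0.75 in CD44+ cells, against 0.17 and 0.81 in CD44- cells, by its brighter probe (A_52_P39157). The groups overlapped, with the second replicate 0.64 above the first in each. The difference of -0.06 ± 0.49 had an interval of -1.19 to 1.07 (adjusted p = 0.977 by limma). Its dimmer probe (A_51_P121547), not well above background on the first CD44+ array, gave -0.55 ± 0.48. Leaving out 1 array moved the brighter probe between -0.38 and 0.27, so its sign is not settled.

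Runx1, the transcription factor of blood formation, an enhancer of which marks gastric stem cells in mice, lay at -0.40 and -0.29 in CD44+ cells, against -0.67 and -0.32 in CD44- cells. The second CD44- array lay between the CD44+ arrays, and the difference was 0.15 ± 0.44 (95% interval -0.88 to 1.17, adjusted p = 0.928 by limma). It was -0.03 without CD44- replicate 1. Sox9, the crypt transcription factor, lay at 3.42 and 4.11 in CD44+ cells, against 3.75 and 3.72 in CD44- cells, by its brightest probe (A_52_P577484). The CD44- arrays fell between the CD44+ arrays, and the difference was 0.03 ± 0.47 (95% interval -1.04 to 1.11, adjusted p = 0.985 by limma).

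The 3 Sox9 probes did not point the same way. A_52_P214630 gave 0.45 ± 0.45 and A_51_P451606 gave -0.51 ± 0.45, the second being not well above background on the first CD44+ array. A_52_P214630 is printed 10 times on the array, which allows a check of the spot-to-spot error. Over 9 spots on the first CD44+ array, 1 outlier spot having been left out, and 10 on each other array, its coefficient of variation was 2.43% and 4.01% in CD44+ cells, against 2.49% and 2.67% in CD44- cells. Its mean processed signal was 1324 and 3215 in CD44+ cells, against 1977 and 2043 in CD44- cells. Spots of 1 probe on 1 array share the RNA and the hybridisation, so this error leaves out the spread between samples.

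**Figure D4:**
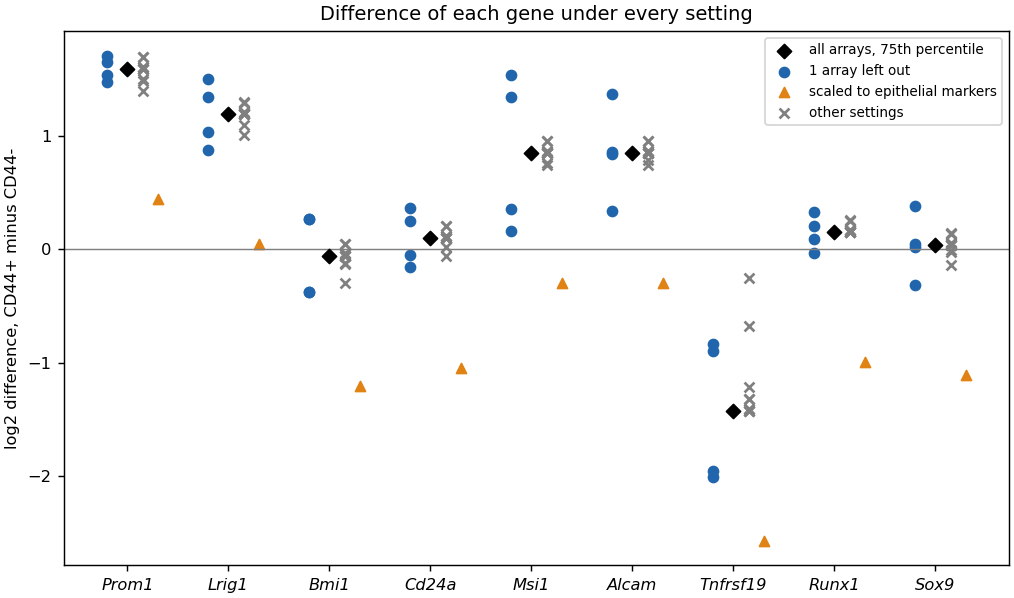
Log2 difference, CD44+ minus CD44-, of each of the 9 genes under every setting of the processing. Black diamonds are all 4 arrays scaled to the 75th percentile, blue circles leave out 1 array each, orange triangles scale to the epithelial markers, and grey crosses are the other settings. Prom1 and Lrig1 stay above 0 and Tnfrsf19 below 0 in all that tested them, while Bmi1, Cd24a, Runx1 and Sox9 lie on both sides of 0. Msi1 and Alcam lie below 0 only with epithelial scaling.

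Genes of the pathways around the 9 were read from 8 lists of 97 genes tested in all, and none of the 97 passed over all genes. Each list's counts stand beside shares over all genes of 60.6% above 0, and of 22.4% higher and 17.2% lower in CD44+ cells without overlap. At most 3 genes per list are named, those with the smallest p, besides Lgr5, Axin2 and genes said to be named after their values were seen. In the first list, 25 other stem cell genes of stomach and intestine, 18 lay above 0, with a median of 0.38. There 13 were higher and 1 was lower in CD44+ cells without overlap. Iqgap3, a scaffold protein of proliferating stomach isthmus cells in mice, lay at 0.56 and 0.45 in CD44+ cells, against -1.64 and -1.79 in CD44- cells (log2 difference 2.22 ± 0.44, adjusted p = 0.104 by limma). The mitotic cyclin Ccnb1 differed by 2.02 ± 0.51 and is also in the cell cycle list. Dclk1, a kinase of tuft cells, lay at -1.94 and -1.40 in CD44+ cells, against -0.01 and 1.41 in CD44- cells (-2.37 ± 0.58, adjusted p = 0.155 by limma).

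The Wnt target genes named from that list had different patterns. Axin2, a feedback inhibitor of Wnt signalling, lay at -0.82 and -1.20 in CD44+ cells, against -2.06 and -2.52 in CD44- cells. The groups did not overlap, and the difference was 1.28 ± 0.46 (2.42-fold, 95% interval 0.22 to 2.34, adjusted p = 0.330 by limma). Lgr5, the R-spondin receptor of intestinal and antral stem cells, lay at -0.79 and -2.51 in CD44+ cells, against -2.57 and -0.60 in CD44- cells. Its arrays overlapped fully, with a difference of -0.07 ± 0.78 and an interval of -1.88 to 1.74 (adjusted p = 0.981 by limma), so these arrays allow a large difference in either direction.

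Partners of the surface markers formed a list of 7, of which 4 lay above 0, with a median of 0.13. None was higher and 2 were lower in CD44+ cells without overlap. Prom2, the epithelial relative of Prom1, lay at -1.36 and -2.37 in CD44+ cells, against 1.07 and 0.91 in CD44- cells. It was 7.25-fold lower in CD44+ cells, at -2.86 ± 0.50 on the log2 scale, opposite in sign to Prom1, and its adjusted p of 0.0774 by limma was the smallest of the 97. With all 4 arrays, Prom2 passed with median scaling, normexp and epithelial scaling, but not with quantile normalization, no filter or the mean of its probes (-2.17). Mcam, an adhesion molecule of vessels related to Alcam, differed by -4.63 ± 1.39 (adjusted p = 0.233), with levels of -5.69 and -2.81 in CD44+ cells, against -1.85 and 2.61 in CD44- cells, and only 1 CD44+ array well above background. Cd6, the T cell receptor for ALCAM, overlapped between groups at 0.98 ± 0.58, and was 0.27 to 1.69 with 1 array left out.

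Around Lrig1, 11 genes, namely ERBB receptors and ligands, Lrig relatives and Met, had a median of 0.06. Of these 7 lay above 0, and 3 were higher and 1 lower without overlap. The shares over all genes were 60.6%, 22.4% and 17.2%. Met, the receptor for hepatocyte growth factor, lay at 2.64 and 2.26 in CD44+ cells, against 1.79 and 1.29 in CD44- cells (0.91 ± 0.46, adjusted p = 0.589 by limma). The EGF receptor ligand Btc overlapped at 1.33 ± 0.69 (0.39 to 2.28 with 1 array left out), and the receptor Erbb3 was at -0.78 ± 0.49. Around Tnfrsf19, 9 relatives and adaptors had a median of 0.34, with 6 above 0 and 3 higher and 2 lower without overlap. Edar, the ectodysplasin receptor, and Ngfr, the p75 neurotrophin receptor, lay on the same side as Tnfrsf19, at -1.68 ± 0.45 and -2.08 ± 0.60 (adjusted p = 0.186 and 0.210 by limma), though Edar was well above background on only 1 CD44+ array. As the mean of its probes Ngfr was at -0.74, so its size depends on the probe. Tnfrsf12a, the receptor for TWEAK, was at 1.14 ± 0.46, with 4.28 and 3.68 in CD44+ cells, against 2.94 and 2.73 in CD44- cells.

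Around Msi1, 15 genes of the Notch axis had a median of -0.41, with 5 above 0. Without overlap 2 were higher and 4 lower, beside 22.4% and 17.2% of all genes. The 3 named were all on the lower side. The ligand Jag2 lay at -1.48 and -1.58 in CD44+ cells, against -0.47 and 0.62 in CD44- cells (-1.60 ± 0.51, adjusted p = 0.268 by limma). Notch4, a receptor of endothelial cells, was at -1.45 ± 0.51 and Notch3, a receptor of mural cells, at -1.19 ± 0.62 (-2.08 to -0.31 with 1 array left out). For these genes too the second CD44- array was the highest of the 4, as it was for the endothelial and fibroblast sums, whose part was not tested.

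Around Bmi1, 14 Polycomb complex genes and targets lay near 0, with a median of -0.01, 6 above 0 and 2 higher and none lower without overlap. The subunit Phc2 lay at 4.30 and 4.22 in CD44+ cells, against 3.82 and 3.69 in CD44- cells, a difference of 0.51 ± 0.44 (adjusted p = 0.786 by limma). Cbx2 and Cbx6, which bind methylated histone H3, overlapped between groups at 0.57 ± 0.54 and -0.58 ± 0.62. With 1 array left out Cbx2 was 0.011 to 1.14 and Cbx6 -1.30 to 0.15. As the mean of its probes Cbx6 was at -0.14. Cdkn2a, the best known target of Bmi1, did not pass the filter on dim signal and was not tested.

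Around Runx1, 6 relatives and cofactors had a median of -0.998, with 3 above 0 and 2 higher and 2 lower without overlap. Those above 0, named after their values were seen, were Runx2 at 0.73 ± 0.45, Runx3 at 0.64 ± 0.54 and the partner Cbfb at 0.55 ± 0.44. The median is thus not that of the Runx genes themselves. Runx1t1, the ETO corepressor, lay at -5.49 and -3.64 in CD44+ cells, against -1.96 and 0.24 in CD44- cells (-3.71 ± 0.84, adjusted p = 0.132 by limma), and only 1 CD44+ array was well above background. Fli1 and Gata2, factors of blood and vessel cells, were at -2.55 ± 0.99 and -2.56 ± 1.23, again with 1 CD44+ array well above background. With 1 array left out they were -4.25 to -0.85 and -4.77 to -0.34. In the Sox family, 11 genes had a median of 0.04, with 6 above 0. Without overlap 3 were higher and 2 lower, beside 22.4% and 17.2% of all genes. Sox18, an endothelial factor, lay at -5.65 and -3.38 in CD44+ cells, against -0.91 and 3.47 in CD44- cells (-5.79 ± 1.31, adjusted p = 0.132 by limma), and only 1 CD44+ array was well above background. Sox6 had no CD44+ array well above background and was at least 1.26-fold lower (adjusted p = 0.189 by limma). Sox2, a stem cell factor of the stomach, was at 0.88 ± 0.46, with 1.62 and 1.02 in CD44+ cells, against 0.55 and 0.33 in CD44- cells.

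**Figure D5:**
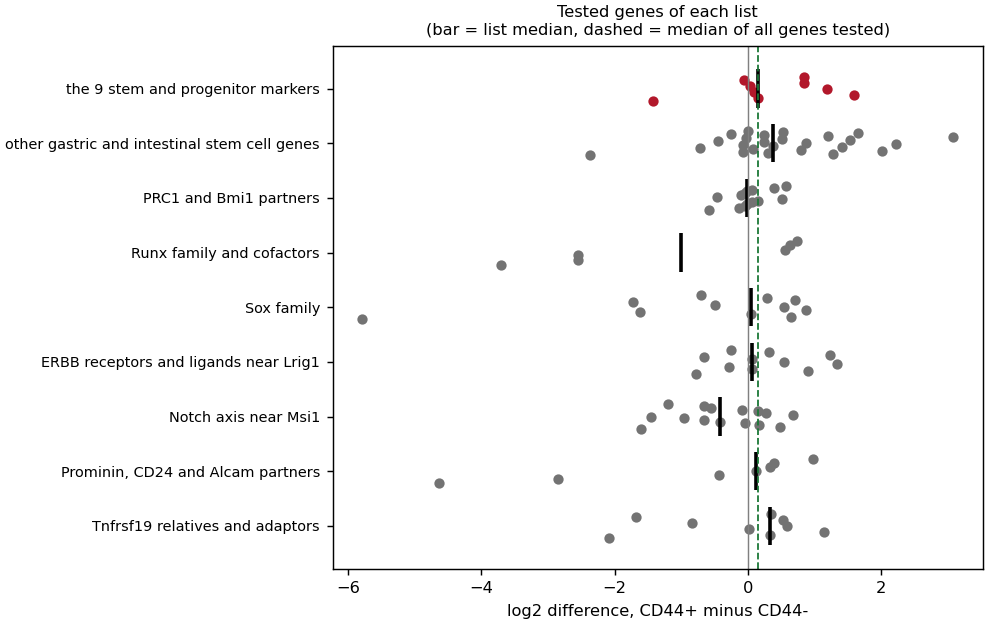
Log2 difference, CD44+ minus CD44-, of every tested gene of the 9 markers (red) and of the 8 pathway lists (grey). Each point is a gene, spread vertically only to keep points apart, the black bar is the list median, the dashed line is the median of all genes tested (0.16) and the grey line is 0. The list medians run from -0.998 for the Runx family and cofactors to 0.38 for the other stem cell genes. In the Runx list, Runx2, Runx3 and Cbfb lie above 0.

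The genes whose profile over the 4 arrays was nearest to a marker were named for the 3 of the 8 genes well above background on all arrays that varied most, Msi1, Prom1 and Lrig1, with ranges of 2.02, 1.76 and 1.66. Likeness was the root mean square difference between log2 profiles centred on their means, among 11659 other named genes. Nearest to Prom1 were Ube2t, a ubiquitin-conjugating enzyme of DNA repair (0.049), Cenpe, a kinetochore motor (0.050), and Sapcd2, a regulator of spindle orientation (0.075). Cenpe lay at 3.97 and 4.01 in CD44+ cells, against 2.21 and 2.42 in CD44- cells. Nearest to Lrig1 were Cenpq, a centromere protein (0.069), Marveld3, of tight junctions (0.074), and Pax9, a foregut transcription factor (0.079). Nearest to Msi1 were AF067063 (0.038), Ppp1r3b, a glycogen-targeting phosphatase subunit (0.039), and Ncoa4, the receptor for autophagy of ferritin (0.048). A profile of 4 arrays holds few values, and the likeness is a description.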

How the data were processed

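RNA of 2 CD44+ and 2 CD44- samples was measured on 1-colour arrays. Per the labels' protocols, RNA was amplified before Cy3 labelling, which can distort ratios between transcripts. Scanner output for each array and a table of values were deposited. Agilent Feature Extraction wrote the scanner output, in version 10.1.1.1 per the file headers but 9.5 per the submitters' processing notes. The deposited processed signal is a background-subtracted intensity on a linear scale, not scaled between arrays, and the median and local background signals are raw intensities, per the file headers. Other deposited columns are 0 or 1 flags that mark signal well above background, saturated spots and outliers. The deposited value table is a linear ratio. For 10728 bright probes its log2 differences between arrays equalled those of the scanner signal apart from 1 constant per array (SD at most 0.00161), and each probe was divided by its median over arrays. How the constants were chosen is unknown. The column medians are 0.853 and 0.989 for CD44+ and 0.928 and 0.739 for CD44-.

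Control spots and outlier spots (109 to 133 per array) were left out, spots of a probe were averaged and log2 signals were scaled to the array's 75th percentile over the averaged probes. Taking that percentile over spots before averaging was tried first and gave 112 calls in place of 84. The averaged form was kept because it followed an earlier processing of these data, and this was decided with both counts known. Genes were named by accession through RefSeq (GRCm38.p6), which named 24375 probes. The array refers to another build, so no probe coordinates are given. Each gene was tested by its brightest probe with limma 3.58.1 in R 4.3.3 without covariates, with 2 residual and 6.01 prior degrees of freedom. Adjusted p-values (Benjamini-Hochberg) are over 21045 genes, and over 26508 probes for single probes. The fit was tested on simulated data. It recovered 40 of 100 genes shifted by a log2 difference of 2 and 99 of 100 shifted by 4, with 14 false calls. Each of the 9 genes differed by less than 2. The simulated spread was changed after a first outcome was seen. The 9 genes and the gene lists were chosen with earlier results of these data known. The genes named are the 9, up to 3 per pathway list and up to 2 per marker list with the smallest p, Cd44, Lgr5 and Axin2, and the 3 genes nearest in profile to each of 3 markers. A few others are said in place to be named after their values were seen. Same-numbered replicates are not said to share a mouse or day, so no block was used.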

Additional observations from a re-analysis of the deposited data

How the results depend on the processing

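With 2 arrays per group, calls over the whole array depended on the processing. Against 84 genes, 748 passed with median scaling, 6 with quantile normalization, 753 in the authors' value table, 540 with normexp background, 24 with no filter, 1829 with the replicate block and 1617 with scaling to the epithelial markers. Leaving out 1 array gave 2 to 1590 genes. Without the first or the second CD44+ array there were 34 and 2, and without the first or the second CD44- array 1590 and 464. Each such fit has 1 array in a group, whose spread is assumed to be that of the other group, and 1 residual degree of freedom, so its calls say nothing about stability. limma's prior degrees of freedom, which set how far each gene's spread is drawn to that of all genes, also differed. They were 6.01 in the main fit, 6.40 with no filter, 3.52 with quantile normalization and 18.9 with median scaling. They were infinite with normexp background, the replicate block and epithelial scaling. The cause of the differing counts was not tested. Taking the 75th percentile over all gene spots, or over those without outlier flags, gave 112 genes each. These 2 settings and the epithelial scaling were chosen after seeing the data. Of the 9 markers, 1 passed with the replicate block (Prom1, adjusted p = 0.0272 by limma), 1 with epithelial scaling (Tnfrsf19, -2.57, adjusted p = 0.0460 by limma) and none in the other 13 settings, with 0 in each fit that left out an array. With the replicate block and with epithelial scaling every gene had the same SE, 0.516 and 0.878. These 2 p-values thus do not reflect the gene's own spread. Epithelial scaling also moved the median of all genes by -1.15, and 1614 of its 1617 calls were lower. Replicate numbers showed a correlation of 0.347 across genes between the deviations of same-numbered arrays, over only 2 pairs. The numbers are thus not known to pair the samples. In the pathway lists, against none, 8 genes passed with median scaling, 8 in the authors' value table, 7 with normexp background, 1 when a probe had to be well above background on all 4 arrays, 17 with the replicate block, 13 with epithelial scaling and 0 to 17 with 1 array left out.

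Of 147 recomputed differences of the 9 markers 18 changed sign, as did 11 of 663 of the 45 other genes the rule named. Part of these could not change. The replicate block leaves a difference as it is, and so does any filter or single-probe fit that uses the same probe. The counts are therefore no measure of how stable the signs are. Settings that rescale whole arrays, and so move all genes nearly alike, gave 7 of the 18 and 8 of the 11. With epithelial scaling these were Cd24a (-1.05), Msi1 (-0.30), Alcam (-0.30), Runx1 (-0.996), Sox9 (-1.11), Phc2 (-0.64), Cbx2 (-0.57), Sox2 (-0.27), Met (-0.24), Cd6 (-0.17) and Tnfrsf12a (-0.00041). With median scaling and in the authors' value table Bmi1 was at 0.049 and 0.047 and Lgr5 at 0.036 and 0.034. With quantile normalization Cd24a was at -0.062 and Sox9 at -0.14. Sox9 was at -0.027 with normexp background, at -0.0078 as the mean of its probes and at -0.51 by probe A_51_P451606. With 1 array left out the ranges were -0.38 to 0.27 for Bmi1, -0.16 to 0.36 for Cd24a, -0.030 to 0.33 for Runx1, -0.31 to 0.38 for Sox9, -1.05 to 0.92 for Lgr5 and -1.30 to 0.15 for Cbx6. Median scaling moved the median of all genes by 0.11. A block for slide or scan was not run because all arrays share both. Signal over background limits Tnfrsf19, the dimmer Bmi1 and Sox9 probes and every gene given as a lower limit. It also limits Mcam, Edar, Runx1t1, Fli1, Gata2, Sox18, Laptm5, Lcp2, Ghrl and Scg5, each well above background on only 1 CD44+ array.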
